A study of Mus musculus with 29 samples.

Results

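The early B lymphoid precursor genes described here are the surrogate light chain genes Vpreb1, Vpreb3 and Igll1, the recombination genes Rag1, Rag2 and Dntt, and the transcription factor genes Ebf1 and Pax5. They were taken by name, as every probe set annotated to exactly 1 of these symbols, and the brightest probe set of a gene in a tissue gave its level. All 8 genes were measured, by 13 of the 22690 probe sets on the array and as 8 of the 12394 genes with a probe set of their own. The arrays profiled marrow and spleen from mice with MLL-ENL-ERtm, a leukaemia fusion protein joined to a mutated oestrogen-binding domain so that it acts in the presence of tamoxifen, and of wild-type mice. All mice, wild type included, were fed tamoxifen at 300 mg/kg chow. The marrow groups were the fusion states named proliferation (4 mice, 7 months of tamoxifen), transition (4 mice, 7 to 8 months) and senescence (3 mice, 8 months), and wild type (4 mice, 8, 7, 7 and 7 months). The spleen groups were the fusion stages named early (3 mice, 7 months), progression (3 mice, 10, 10 and 9 months) and terminal (3 mice, 21, 23 and 19 months), and wild type (5 mice, 24, 8, 9, 11 and 11 months). The labels name no promoter, strain or cell type for the fusion, no age apart from the months of treatment and no sorting of cells. The replicates are called biological, and whether a marrow and a spleen sample came from the same mouse is not stated.

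A B cell precursor in the marrow first assembles a heavy chain gene, and the surrogate light chain then stands in for the missing light chain in the pre-B cell receptor that tests the new heavy chain. Vpreb1 and Igll1 (lambda 5) are the invariant chains of that receptor, and Vpreb3 is a related protein of B cells that is found beyond the pre-B cell stage. Rag1 and Rag2 form the recombinase that cuts antigen receptor gene segments in B and T cell precursors, and Dntt (terminal deoxynucleotidyl transferase) adds untemplated bases at the joints. Ebf1 and Pax5 are the factors that specify and then commit the B lineage, and unlike the recombinase and the surrogate light chain both remain in mature B cells, which fill the spleen's follicles.

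The stretches before the start sites of Vpreb1, Igll1 and Rag1 are shown because these genes fell in marrow and rose in the progression spleen. They were also the 3 of the 8 genes with the E-box CAGGTG, a motif bound by the E proteins of early B cells. The 3 were picked with both known, so a link between the motif and the directions was not tested. For Igll1 both directions were seen by 1 of its 2 probe sets. The sequences are those of RefSeq on GRCm38.p6, on the gene's strand, and cover the 250 bases before the start site at chr16:16869256-16869505 (minus strand) for Vpreb1, chr16:16863986-16864235 (minus strand) for Igll1 and chr2:101649533-101649782 (minus strand) for Rag1. Capitals mark CAGGTG or its reverse complement.
Vpreb1: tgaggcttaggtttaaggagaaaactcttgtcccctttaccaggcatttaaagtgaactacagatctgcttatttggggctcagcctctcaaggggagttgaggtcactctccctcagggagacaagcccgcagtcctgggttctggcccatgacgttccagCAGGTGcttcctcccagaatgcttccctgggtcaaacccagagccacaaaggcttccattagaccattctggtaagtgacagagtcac
Igll1: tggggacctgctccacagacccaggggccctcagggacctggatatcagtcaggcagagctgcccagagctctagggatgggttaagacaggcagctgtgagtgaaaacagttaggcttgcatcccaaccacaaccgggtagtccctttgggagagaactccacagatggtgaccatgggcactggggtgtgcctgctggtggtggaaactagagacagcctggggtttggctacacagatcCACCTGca
Rag1: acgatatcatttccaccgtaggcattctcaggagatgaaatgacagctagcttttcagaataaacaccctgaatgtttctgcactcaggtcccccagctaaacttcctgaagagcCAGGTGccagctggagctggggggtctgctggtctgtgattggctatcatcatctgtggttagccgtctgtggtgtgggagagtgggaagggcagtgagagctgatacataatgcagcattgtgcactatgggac
Counted from the start site, its first base lay at position -88 in Vpreb1, -8 in Igll1 and -135 in Rag1. The 8 genes had 9 promoter windows of 300 bases (250 before and 50 after a start site, with 2 windows for Ebf1). Searched on both strands, CAGGTG was in 3 of these 9 windows and in 20.2% of all 32851 windows. The Ebf1 motif CCCNNGGG was in 1 of the 9, that of Igll1, and in 13.7% of all windows. The Ikaros motif TGGGAA was in 2 of the 9 and in 25.6% of all windows, and the ETS motif AGGAAG in 3 of the 9 and in 35.4%. No motif was found in the windows of Rag2, Dntt and Pax5. A match says only that these letters are present. In RefSeq's order of genes Vpreb1 and Igll1 are neighbours on chromosome 16 and Rag1 and Rag2 on chromosome 2, while Dntt lies next to Blnk on chromosome 19.

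Values are log2 levels, on which a difference of 1 is a 2-fold difference, and levels were compared within a tissue and within a gene only, because the median of an array was 8.11 to 8.29 for marrow but 6.73 to 6.90 for spleen. The lower quartile of all probe sets, used as a mark for dim genes, was 6.13 to 6.32 for marrow arrays and 4.56 to 4.81 for spleen arrays. The oestrogen receptor gene Esr1, whose probe set may detect the ERtm part of the transgene, was 8.13 to 8.66 in fusion marrow against 5.60 to 6.65 in wild type, and 7.03 to 7.71 in fusion spleen against 4.70 to 5.48, so every array matched its genotype label. Mpo, a granule enzyme of marrow precursors, was 14.51 to 15.07 in marrow, and Ms4a1 (CD20), a marker of the follicular B cells of spleen, was 12.79 to 13.03 in wild-type spleen. Xist, which is expressed from the inactive X chromosome, was at least 11.58 in all proliferation, transition and terminal arrays and at most 5.72 in all progression arrays, and the other groups held both kinds. Arrays with signal of another tissue were proliferation 1, where fat and muscle markers averaged 2.81 above wild type, and 3 spleens, where exocrine pancreas markers averaged 6.94 (wild-type 3), 2.72 (early 1) and 2.36 (wild-type 5) above the median spleen array. Each difference is given ± its standard error from limma, with p adjusted by Benjamini-Hochberg over the 12394 genes, and a gene is said to have risen or fallen where that p was under 0.05. In whole tissue, fewer precursor cells and less RNA per cell cannot be told apart.

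In bone marrow the surrogate light chain genes were lower in fusion mice. Between wild type and the mean of the 3 fusion states, Vpreb1 changed by -3.03 ± 0.36 (adjusted p = 0.00064), Igll1 by -1.66 ± 0.23 (adjusted p = 0.0032) and Vpreb3 by -1.10 ± 0.18 (adjusted p = 0.013). Rag1 changed by -2.93 ± 0.54 (adjusted p = 0.023) and Ebf1 by -1.87 ± 0.32 (adjusted p = 0.015). Thus 5 of the 8 genes fell and none rose, where 0.387% of all genes fell and 0.662% were called in either direction. The median difference over the 8 genes was -1.77, and over all genes it was 0.02.

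**Figure D1:**
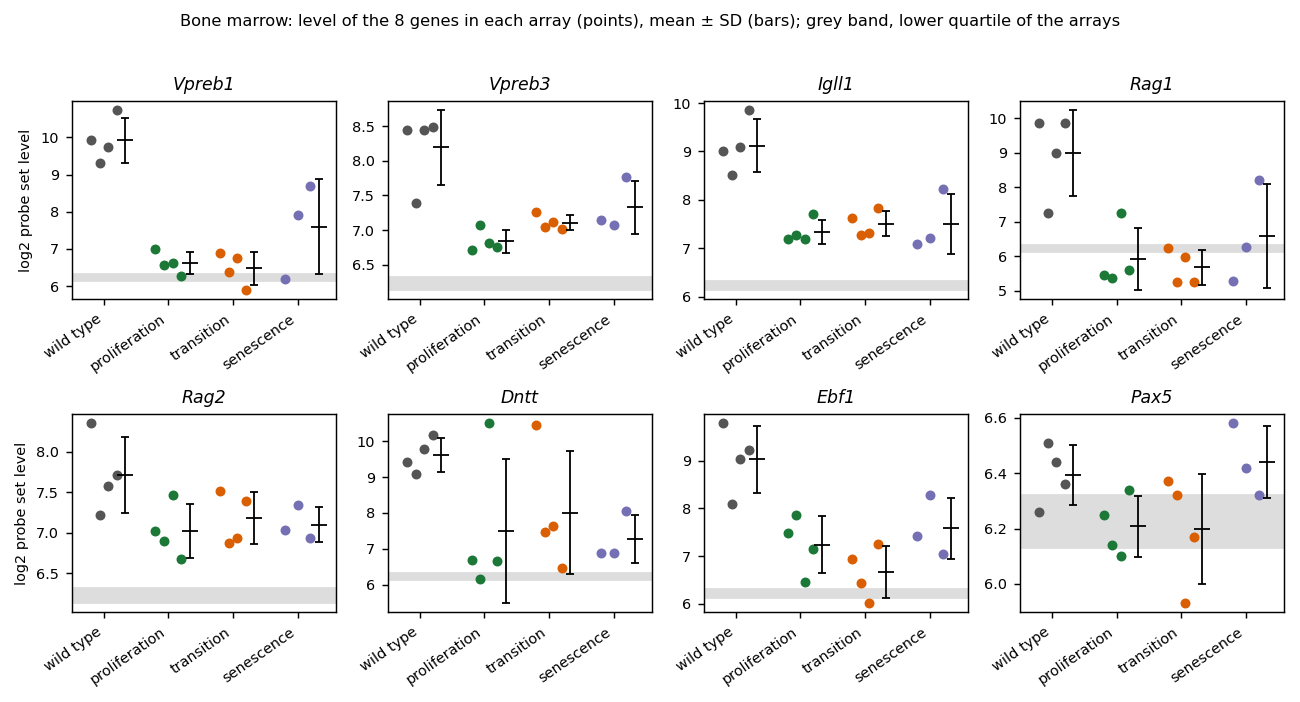
Log2 level of each of the 8 genes (panels, each with its own vertical axis) in the 15 marrow arrays. Points are single mice, black bars the mean ± SD of a group, and the grey band the range of the arrays' lower quartiles (6.13 to 6.32). Vpreb1 lay between 9.30 and 10.73 in wild type and between 5.88 and 8.69 in the fusion arrays, whereas Pax5 lay between 5.93 and 6.58 in every array.

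Vpreb1 was 9.93, 9.30, 9.73 and 10.73 in the wild-type marrows. It was 6.99, 6.56, 6.61 and 6.27 in proliferation, 6.88, 6.39, 6.75 and 5.88 in transition and 6.19, 7.92 and 8.69 in senescence. Every fusion array was below every wild-type array, and senescence was the group with the widest spread. Against wild type Vpreb1 changed by -3.32 ± 0.43 in proliferation (adjusted p = 0.0026) and by -3.45 ± 0.43 in transition (adjusted p = 0.0016), and neither call was lost when any array was left out. In senescence the difference was -2.32 ± 0.47 (adjusted p = 0.15), which was not called. A further probe set shared by Vpreb1 and its near copy Vpreb2, which was not counted among the 13, lay between 5.79 and 6.41 in fusion marrow and between 6.59 and 7.14 in wild type.

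Igll1 had levels of 9.00, 8.52, 9.10 and 9.85 in wild type. They were 7.19, 7.28, 7.20 and 7.71 in proliferation, 7.62, 7.28, 7.31 and 7.83 in transition, and 7.09, 7.21 and 8.22 in senescence. No fusion array reached the wild-type range, and senescence 3 was again the highest of its group. Igll1 fell in proliferation (-1.77 ± 0.28, adjusted p = 0.013) and in transition (-1.60 ± 0.28, adjusted p = 0.017), and the difference of -1.61 ± 0.30 in senescence was not called (adjusted p = 0.077). The call in proliferation was lost without proliferation 2, proliferation 3 or wild-type 3, with adjusted p up to 0.058, and the call in transition without 4 of the 8 arrays, with adjusted p up to 0.067. With Xist as a covariate neither was called, at -1.84 (adjusted p = 0.053) and -1.66 (adjusted p = 0.056). A dimmer Igll1 probe set differed from wild type by -0.11 ± 0.13 over the 3 states (adjusted p = 0.81), so the fall was seen by 1 of its 2 probe sets.

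Vpreb3 showed a smaller difference. Its wild-type levels were 8.45, 7.39, 8.44 and 8.49, with wild-type 2 standing apart from the others. It was 6.71, 7.08, 6.82 and 6.75 in proliferation, 7.26, 7.05, 7.12 and 7.01 in transition and 7.14, 7.08 and 7.77 in senescence, so only senescence overlapped wild type. Vpreb3 fell by 1.35 ± 0.22 in proliferation (adjusted p = 0.019). It differed by -1.08 ± 0.22 in transition (adjusted p = 0.054) and by -0.86 ± 0.24 in senescence (adjusted p = 0.46). The call over the 3 states was lost without wild-type 1, 3 or 4 (adjusted p up to 0.10), and that in proliferation without any of 6 of the 8 arrays (adjusted p up to 0.099) and with Xist as a covariate (-1.44, adjusted p = 0.055).

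Among the recombination genes, Rag1 had the largest difference and a wide spread. It was 9.87, 7.25, 8.99 and 9.87 in wild type, 5.45, 5.36, 7.27 and 5.59 in proliferation, 6.24, 5.25, 5.98 and 5.26 in transition, and 5.28, 6.27 and 8.22 in senescence. Wild-type 2, proliferation 3 and senescence 3 met in the middle, and the transition arrays were all below wild type. Rag1 fell by 3.31 ± 0.65 in transition (adjusted p = 0.042). The transition arrays lay within or below the range of the arrays' lower quartiles, as did 3 of the 4 proliferation arrays, so these differences are set against dim values. The call in transition was lost without any of 6 of the 8 arrays, with adjusted p up to 0.16, and it was also lost after a further quantile normalization (adjusted p = 0.051), with trend and robust options (adjusted p = 0.073), and with Xist or the Gapdh difference as a covariate (adjusted p = 0.15 each). The differences of -3.08 ± 0.65 in proliferation (adjusted p = 0.079) and -2.41 ± 0.71 in senescence (adjusted p = 0.51) were not called. Over the 3 states the fall was lost without wild-type 1, 3 or 4, with adjusted p up to 0.14, and with Xist (adjusted p = 0.059) or the Gapdh difference (adjusted p = 0.053) as a covariate.

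Dntt was 9.42, 9.08, 9.77 and 10.18 in wild type and had no common level in fusion marrow. Proliferation arrays were at 6.68, 6.15, 10.50 and 6.65, transition arrays at 10.46, 7.46, 7.64 and 6.46, and senescence arrays at 6.88, 6.89 and 8.04. Proliferation 3 and transition 1 were above every wild-type array, and the other 9 fusion arrays were below every wild-type array. The difference over the 3 states was -2.02 ± 0.73 (adjusted p = 0.26), and no state was called. Proliferation 3 was also the highest of its state for Rag1 and Rag2, and transition 1 the highest of its state for both. Deviations of Rag1 and Dntt from their state means correlated at r = 0.73 over the 11 fusion marrows, which are arrays of different mice measured together.

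Rag2 spanned a narrow range. Wild-type arrays were at 8.35, 7.22, 7.58 and 7.71, and the 11 fusion arrays lay between 6.68 and 7.51. The groups overlapped through wild-type 2, and the difference of -0.62 ± 0.19 over the 3 states was not called (adjusted p = 0.19).

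Of the transcription factors, Ebf1 was 9.78, 8.09, 9.04 and 9.21 in wild type. It was 7.48, 7.86, 6.45 and 7.15 in proliferation, 6.94, 6.44, 6.01 and 7.25 in transition, and 7.43, 8.28 and 7.04 in senescence. Only senescence 2 reached the wild-type range. Ebf1 fell by 2.37 ± 0.39 in transition (adjusted p = 0.014), while -1.79 ± 0.39 in proliferation (adjusted p = 0.086) and -1.44 ± 0.42 in senescence (adjusted p = 0.51) were not called. The call in transition was lost without transition 3, wild-type 3 or wild-type 4 (adjusted p up to 0.056) and with Xist (-2.39, adjusted p = 0.052) or the Gapdh difference (-2.02, adjusted p = 0.078) as a covariate, and that over the 3 states without wild-type 1, 3 or 4 (adjusted p up to 0.095). Its other probe sets differed by -1.95 ± 0.29 (adjusted p = 0.0050) and -1.28 ± 0.24 (adjusted p = 0.024) over the 3 states, in the same direction. Pax5 lay near the lower quartile in every marrow array, and its difference of -0.11 ± 0.10 had a 95% interval of -0.32 to 0.10 (adjusted p = 0.73).

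By state, 3 genes fell in proliferation (0.169% of all genes), 4 in transition (0.234%) and none in senescence (0.0161%), by limma. None rose, where 0.0323% of all genes rose in senescence. At an unadjusted p under 0.05 7 were lower in proliferation (2.79% of all genes), 6 in transition (3.81%) and 7 in senescence (2.07%). None was higher at that threshold, where in proliferation 7.11% of all genes were and 9.90% passed it in either direction. Senescence also had 3 arrays, of which senescence 2 and 3 were low in Xist (7.61 and 7.02) like wild-type 1 and 2, while senescence 1 and all proliferation and transition arrays were high. With Xist as a covariate the senescence differences were -2.41 for Vpreb1 (adjusted p = 0.16) and -2.48 for Rag1 (adjusted p = 0.73). Groups did not overlap, with fusion below, for 4 of the 8 genes in proliferation (2.29% of all genes), 5 in transition (1.90%) and 3 in senescence (2.07%). Between the fusion states none of the 8 genes was called, and 0% of all genes were. The largest of these differences was that of Vpreb1, 1.13 ± 0.47 higher in senescence than in transition (95% interval 0.13 to 2.12, adjusted p = 1). At an unadjusted p under 0.05, 2 genes were higher in senescence than in transition, Vpreb1 and Ebf1, where 1.36% of all genes were. None differed between the other states, where 2.15% of all genes did between transition and proliferation and 1.01% between senescence and proliferation.

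In the spleen the 8 genes parted in direction. Over the 3 fusion stages Ebf1 changed by -3.15 ± 0.33 (adjusted p = 9e-06), Vpreb3 by -1.85 ± 0.14 (adjusted p = 8.4e-07) and Pax5 by -0.62 ± 0.09 (adjusted p = 0.00014). Vpreb1 rose by 0.88 ± 0.30 (adjusted p = 0.039), Igll1 by 0.40 ± 0.13 (adjusted p = 0.026) and Rag2 by 0.46 ± 0.09 (adjusted p = 0.0017). So 3 genes fell, where 16.4% of all genes fell, and 3 rose, where 16.0% of all genes rose and 32.5% were called in either direction. Rag1 (0.72 ± 0.35, adjusted p = 0.13) and Dntt (0.62 ± 0.51, adjusted p = 0.38) were not called. Without the 3 arrays with pancreas signal the same 3 genes fell over the stages and none rose.

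**Figure D2:**
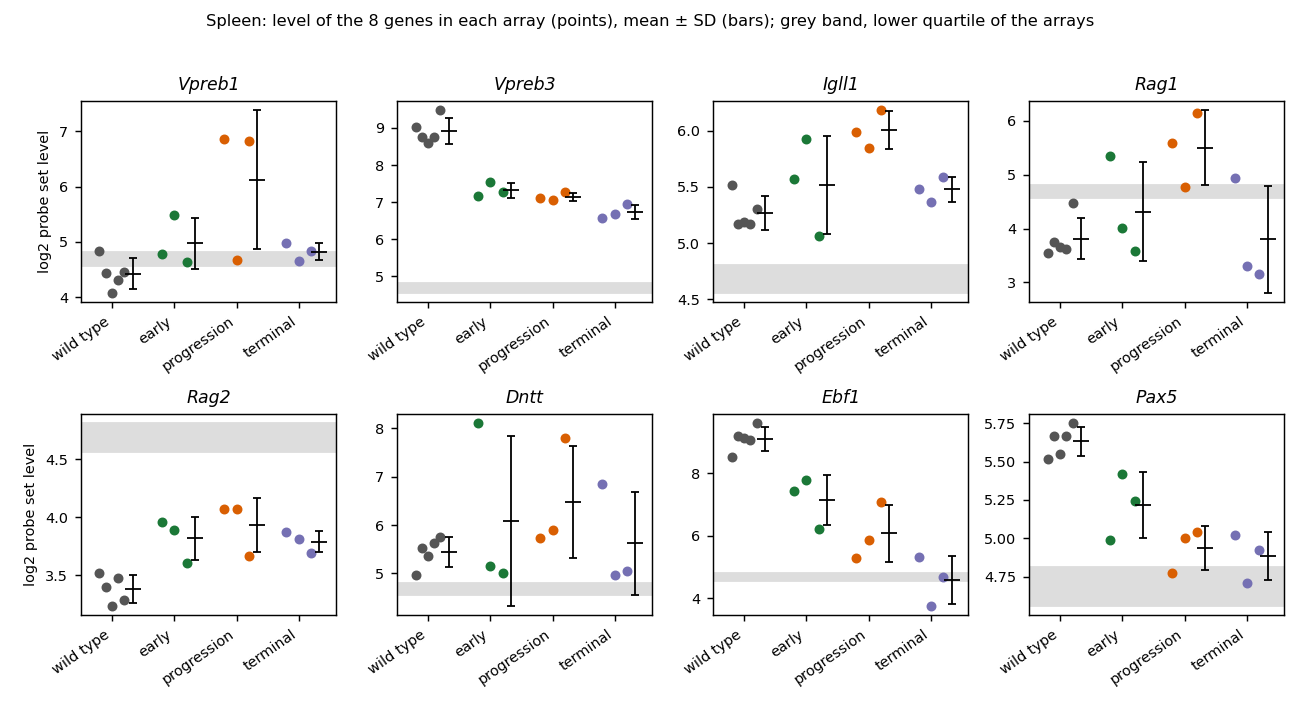
Log2 level of each of the 8 genes (panels, each with its own vertical axis) in the 14 spleen arrays. Points are single mice, black bars the mean ± SD of a group, and the grey band the range of the arrays' lower quartiles (4.56 to 4.81). Ebf1 went from a wild-type range of 8.50 to 9.59 to a terminal range of 3.77 to 5.31, Vpreb1 was raised in progression 1 and 3, and all Rag2 values lay below the band.

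Ebf1 was 8.50, 9.18, 9.12, 9.05 and 9.59 in wild-type spleen. It was 7.43, 7.77 and 6.23 in the early stage, 5.30, 5.85 and 7.09 in progression and 5.31, 3.77 and 4.68 in the terminal stage. Each stage lay below every wild-type array, and the terminal arrays were below all early arrays. Ebf1 fell in all 3 stages, with differences of -1.95 ± 0.44 in the early stage (adjusted p = 0.0076), -3.01 ± 0.44 in progression (adjusted p = 0.00034) and -4.51 ± 0.44 in the terminal stage (adjusted p = 4.2e-06). Without the 3 arrays with pancreas signal the early difference was not called (-1.91, adjusted p = 0.096). Between the terminal and the early stage it fell by 2.56 ± 0.49 (adjusted p = 0.0062), the only gene of the 8 that changed between stages, where 3.88% of all genes fell and 2.73% rose. That call was lost in a fit of these groups alone (adjusted p = 0.054). It was also lost in a separate fit of all spleen arrays with months of tamoxifen as a covariate (-1.71, adjusted p = 0.29). On 1 of the other 2 Ebf1 probe sets it was lost too (-1.57 ± 0.45, adjusted p = 0.052). Between the same stages 5 of 13 mature B cell markers (median -1.32) and 7 of 8 erythroid markers (median -1.68) fell, and their part in the fall of Ebf1 was not tested. The terminal mice had the longest treatment of the fusion mice. Wild-type 1, treated for 24 months, had an Ebf1 level of 8.50, the lowest of the wild-type spleens. It was also the lowest of them on the other Ebf1 probe sets, at 8.39 and 7.84, and it was the only wild-type mouse treated that long.

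Pax5, which commits the lineage downstream of Ebf1, was 5.52, 5.67, 5.55, 5.67 and 5.75 in wild-type spleen. Its fusion levels were 4.99, 5.42 and 5.24 in the early stage, 4.77, 5.00 and 5.04 in progression and 5.02, 4.71 and 4.92 in the terminal stage. All 9 fusion arrays were below all wild-type arrays, on a scale that ended close to the lower quartile. Pax5 fell in all 3 stages, by differences of -0.41 ± 0.12 (adjusted p = 0.03), -0.69 ± 0.12 (adjusted p = 0.0011) and -0.75 ± 0.12 (adjusted p = 0.00025) in that order. The call in the early stage was lost without early 1 (adjusted p = 0.17), without any of 4 other arrays, and without the 3 arrays with pancreas signal (-0.29, adjusted p = 0.38).

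Vpreb3 was 9.02, 8.76, 8.58, 8.76 and 9.47 in wild-type spleen, against 7.16, 7.55 and 7.26 in the early stage, 7.12, 7.06 and 7.27 in progression and 6.57, 6.67 and 6.94 in the terminal stage. The fusion and wild-type arrays were separate, with 8.58 the lowest wild-type and 7.55 the highest fusion level. It fell in all 3 stages, with differences of -1.60 ± 0.18 (adjusted p = 0.0001), -1.77 ± 0.18 (adjusted p = 3.8e-05) and -2.19 ± 0.18 (adjusted p = 1.1e-06), and no left-out array ended any of these calls. The direction was that of Ebf1 and Pax5, and the opposite of Vpreb1 and Igll1.

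Vpreb1 was dim in wild-type spleen, at 4.84, 4.44, 4.08, 4.31 and 4.45. It was 4.78, 5.49 and 4.64 in the early stage, 6.86, 4.67 and 6.83 in progression and 4.97, 4.66 and 4.84 in the terminal stage. Progression 1 and 3 stood above every other spleen array, and progression 2 was within the wild-type range. Vpreb1 rose by 1.70 ± 0.40 in progression (adjusted p = 0.0084), a call lost without progression 1 (1.33, adjusted p = 0.055) and without the 3 arrays with pancreas signal (1.59, adjusted p = 0.071). The early (0.54 ± 0.40, adjusted p = 0.4) and terminal (0.40 ± 0.40, adjusted p = 0.49) differences were not called. The call over the 3 stages was lost without any of 9 of the 14 arrays, with adjusted p up to 0.098, without the 3 arrays with pancreas signal (0.81, adjusted p = 0.22), after a further quantile normalization (0.84, adjusted p = 0.059) and in 1 fit over all 29 arrays (adjusted p = 0.054). The probe set shared with Vpreb2 was 5.14 to 5.98 in progression and 4.90 to 5.07 in wild type.

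Igll1, its partner chain, was 5.52, 5.17, 5.19, 5.17 and 5.30 in wild-type spleen and 5.99, 5.85 and 6.18 in progression, with no overlap. Early arrays were at 5.57, 5.93 and 5.06 and terminal arrays at 5.48, 5.37 and 5.59. Early 3 was below and early 1 and 2 above every wild-type array, and only terminal 3 was above them all in its stage. Igll1 rose by 0.74 ± 0.16 in progression (adjusted p = 0.0064), and no left-out array ended that call, though it was lost for the mean of its probe sets (0.23, adjusted p = 0.24) and without the 3 arrays with pancreas signal (0.72, adjusted p = 0.059). The dimmer probe set went the other way, by -0.27 ± 0.18 in progression (adjusted p = 0.31) and by -0.51 ± 0.18 in the terminal stage (adjusted p = 0.039), so the direction of Igll1 in spleen rests on 1 probe set. The call over the 3 stages was lost without wild-type 2, 3, 4 or 5 (adjusted p up to 0.068), without the 3 arrays with pancreas signal (0.37, adjusted p = 0.18) and in 1 fit over all 29 arrays (adjusted p = 0.12).

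Rag1 was 3.55, 3.76, 3.65, 3.63 and 4.48 in wild-type spleen, all below the lower quartile. It was 5.58, 4.77 and 6.15 in progression, above every wild-type array. In the early stage 1 array of 5.35 stood beside 4.01 and 3.58, and in the terminal stage 1 array of 4.94 stood beside 3.30 and 3.16. Rag1 rose by 1.69 ± 0.45 in progression (adjusted p = 0.019), a call lost without progression 1 (1.65, adjusted p = 0.064) or progression 3 (1.36, adjusted p = 0.061), and in 1 fit over all 29 arrays (adjusted p = 0.057). The early (0.50 ± 0.45, adjusted p = 0.51) and terminal (-0.01 ± 0.45, adjusted p = 0.98) differences were not called. Since wild type lay in the dim range, the difference is not given as a fold.

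Dntt followed the same arrays. It was 8.10, 5.15 and 5.00 in the early stage, 5.73, 5.90 and 7.80 in progression and 6.85, 4.96 and 5.06 in the terminal stage, against 4.96, 5.53, 5.35, 5.62 and 5.76 in wild type. Early 1, progression 3 and terminal 1 were the high arrays, and in each stage the array with the highest Dntt also had the highest Rag1. Deviations of Rag1 and Dntt from their stage means correlated at r = 0.91 over the 9 fusion spleens, which are mice of 3 stages measured on 1 platform. With Ebf1, r was 0.61 for Rag1 and 0.65 for Dntt. Ebf1 and the B cell marker Ms4a1 were also highest of their stage in progression 3 (Ms4a1 11.57) and terminal 1 (10.07). In the early stage both were highest in early 2 (Ms4a1 11.68, against 11.39 in early 1). The part of B cells in the shared high arrays was not tested. No stage was called for Dntt, with 1.03 ± 0.67 in progression (adjusted p = 0.30), and a dimmer Dntt probe set was higher there by 0.51 ± 0.17 (adjusted p = 0.048). Early 1 was also an array with pancreas signal. Without it and the wild-type arrays with that signal, the early difference of Dntt was -0.30 (adjusted p = 0.90).

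Rag2 lay below the lower quartile in all 14 spleen arrays, between 3.24 and 3.52 in wild type and between 3.61 and 4.07 in the fusion stages. The groups did not overlap in any stage. Rag2 rose by 0.43 ± 0.12 (adjusted p = 0.028), 0.55 ± 0.12 (adjusted p = 0.0063) and 0.41 ± 0.12 (adjusted p = 0.019), which are small differences between dim values. The early call was lost without any of 5 of the 8 arrays (adjusted p up to 0.13), and the terminal call without terminal 1 (adjusted p = 0.076) or terminal 2 (adjusted p = 0.059). In 1 fit over all 29 arrays no stage was called (adjusted p = 0.17, 0.055 and 0.13 in that order). The terminal call was also lost with Xist (0.36, adjusted p = 0.072) or months of tamoxifen (0.29, adjusted p = 0.22) as a covariate. Without the 3 arrays with pancreas signal the differences were 0.28 (adjusted p = 0.44), 0.47 (adjusted p = 0.074) and 0.33 (adjusted p = 0.14).

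**Figure D3:**
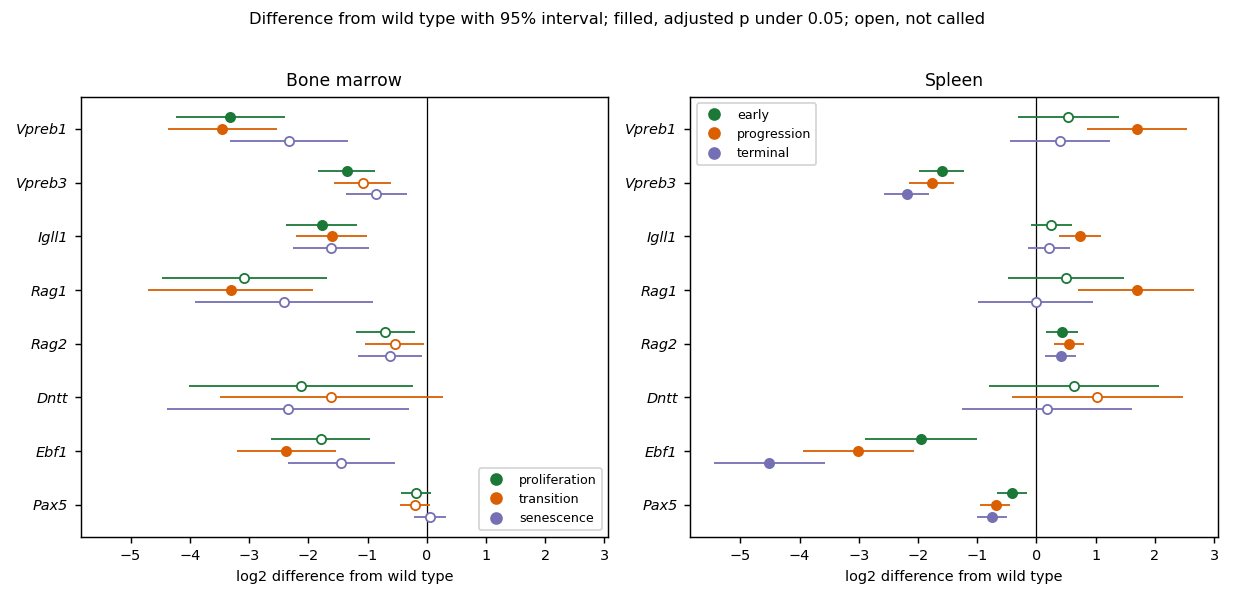
Log2 difference from wild type of each gene (vertical axis) in each marrow state (left) and spleen stage (right). Points are estimates from limma, bars their 95% intervals, and filled points those with adjusted p under 0.05. In marrow the estimates of 7 genes lay below 0 in all 3 states, while in spleen Vpreb3, Ebf1 and Pax5 lay below 0 in all 3 stages and Vpreb1, Igll1, Rag1 and Rag2 were raised in progression.

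Counted by stage, 3 genes fell and 1 rose in the early spleen, where 8.55% of all genes fell and 7.35% rose. In progression 3 fell (9.96% of all genes) and 4 rose (9.29%), and in the terminal stage 3 fell (16.3%) and 1 rose (18.1%), where 34.5% were called in either direction. The genes that fell were Vpreb3, Ebf1 and Pax5 in every stage, and Rag2 was the only gene that rose in every stage, though its calls in the early and terminal stages were lost under several of the alternatives. Groups did not overlap, with fusion higher, for 1 gene in the early stage (12.3% of all genes), 3 in progression (12.2%) and 1 in the terminal stage (21.4%). The stages share their wild-type arrays. Between progression and the early stage no gene of the 8 was called, and 0% of all genes were. At an unadjusted p under 0.05, 1 was lower (3.55% of all genes) and 3 were higher (3.79%), with Vpreb1 1.15 ± 0.44, Rag1 1.19 ± 0.51 and Igll1 0.49 ± 0.18 higher in progression. From progression to the terminal stage all 8 estimates were below 0 and none was called, where 5.86% of all genes were, and 4 were lower at an unadjusted p under 0.05, as were 11.3% of all genes. The largest was Rag1 at -1.70 ± 0.51 (adjusted p = 0.062). It was called without terminal 1 (-2.27, adjusted p = 0.018), and Vpreb1 without progression 2 (-2.02, adjusted p = 0.00031). All progression arrays were low in Xist and all terminal arrays high, and with Xist as a covariate the difference was -2.37 for Rag1 (adjusted p = 0.064) and -1.43 for Vpreb1 (adjusted p = 0.21).

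**Figure D4:**
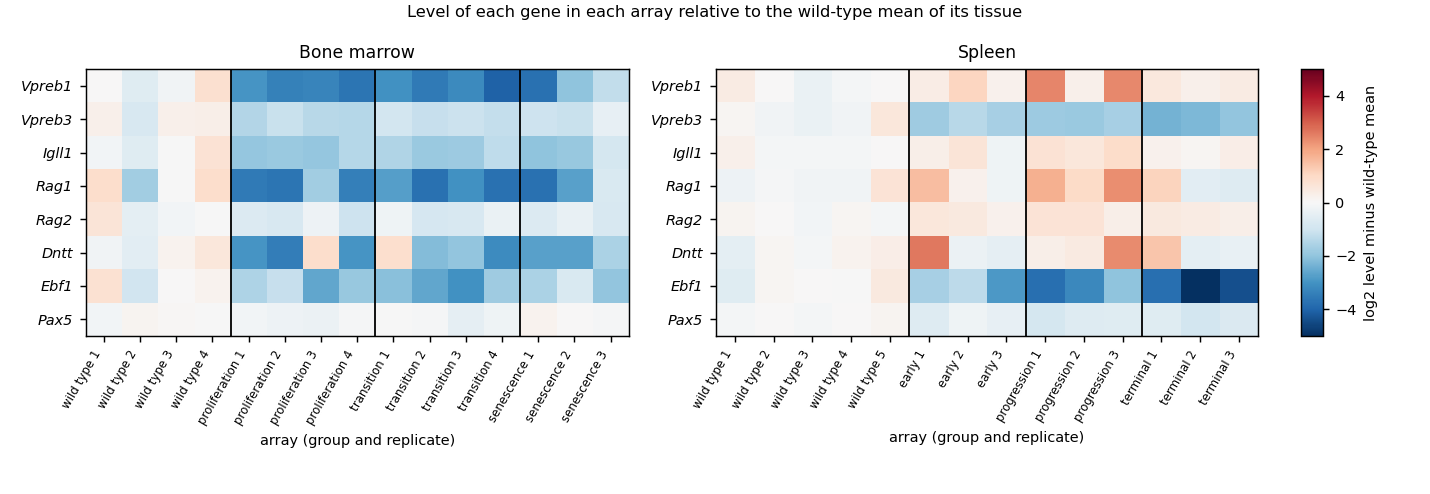
Log2 level of each gene (vertical axis) in each array (horizontal axis, group and replicate) minus the wild-type mean of its tissue, in colour from blue (lower) to red (higher). The high Dntt of proliferation 3 (10.50) and transition 1 (10.46) stands out in marrow, and Dntt and Rag1 are raised together in early 1, progression 3 and terminal 1 in spleen.

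The difference between the tissues was tested directly, as the pooled fusion difference in marrow minus that in spleen. It was -3.91 ± 0.49 for Vpreb1 (adjusted p = 8.2e-06), -2.06 ± 0.27 for Igll1 (adjusted p = 1.1e-05), -3.66 ± 0.68 for Rag1 (adjusted p = 0.00051) and -1.08 ± 0.22 for Rag2 (adjusted p = 0.0013). For these 4 genes the difference from wild type was more negative in marrow than in spleen, and levels were not compared between the tissues. In that direction 5.42% of all genes were called, and no left-out array ended a call of the 4 genes. For Vpreb3 it was 0.76 ± 0.24 (adjusted p = 0.031) and for Pax5 0.51 ± 0.13 (adjusted p = 0.009), with the more negative estimate in spleen, where 8.54% of all genes were called in that direction. The Vpreb3 call was lost without wild-type marrow 2 or wild-type spleen 5 (adjusted p up to 0.11). Dntt (-2.42 ± 0.90, adjusted p = 0.074), read here from another probe set than in marrow alone, and Ebf1 (1.29 ± 0.49, adjusted p = 0.084) were not called. The dimmer Igll1 probe set gave 0.11 ± 0.19 (adjusted p = 0.78). In wild-type spleen the means of Vpreb1 (4.42), Rag1 (3.82) and Rag2 (3.39) lay below the lower quartile of the spleen arrays. A fall of these genes in spleen would therefore be hard to detect, which limits what their contrast between tissues can show. The mean of Pax5 in wild-type marrow (6.39) was likewise close to the lower quartile of the marrow arrays (6.13 to 6.32). A fall of Pax5 in marrow would be hard to detect too, which limits its contrast in the same way. If marrow and spleen of the same mice were used, the arrays would not be independent, which the fit assumes.

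The other genes of the early B pathway were taken from a list of 20 signalling partners and kinases of the pre-B cell receptor and of cytokine receptors and surface proteins of early B cells, of which 16 were measured. In marrow 2 of the 16 fell over the 3 states, Cd79b (-1.34 ± 0.23, adjusted p = 0.013), a signalling chain of the receptor, and Blnk (-1.28 ± 0.22, adjusted p = 0.014), its adaptor, and none rose. The list's median difference was 0.14, against 0.02 over all genes. In spleen 9 fell and 2 rose (median -0.30, against 0.04). The smallest p-values there were those of Il7r, the interleukin 7 receptor of lymphoid precursors (-2.77 ± 0.17, adjusted p = 3.1e-07), Blnk (-2.55 ± 0.31, adjusted p = 2.5e-05), Cd79b (-2.29 ± 0.33, adjusted p = 0.00011) and Cd79a (-2.16 ± 0.34, adjusted p = 0.00023). So in the spleen the receptor's shared signalling chains fell, while Vpreb1 and Igll1 were called higher over the stages. Both of these rises were lost without the 3 arrays with pancreas signal. The dimmer Igll1 probe set differed by -0.22 ± 0.14 over the stages (adjusted p = 0.24), in the other direction.

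Of 22 measured B lineage transcription factors beside Ebf1 and Pax5, 4 fell in marrow over the 3 states and none rose. They were Bach2 (-1.95 ± 0.22, adjusted p = 0.00053), Spib (-2.29 ± 0.36, adjusted p = 0.0085), Pou2af1 (-1.54 ± 0.29, adjusted p = 0.025) and Foxo1 (-0.68 ± 0.13, adjusted p = 0.029), factors of B cell activation and differentiation, with Foxo1 also an activator of Rag gene expression. In spleen 13 fell and 6 rose, with a median of -0.69. Myb (1.50 ± 0.14, adjusted p = 3.6e-06) and Spi1 (1.35 ± 0.14, adjusted p = 7.7e-06), factors of blood progenitors and of the myeloid line, rose, while Foxo1 (-2.11 ± 0.23, adjusted p = 1.1e-05) and Bach2 (-2.94 ± 0.36, adjusted p = 3.2e-05) fell. Of 9 measured genes that join the breaks made by the recombinase, none was called in marrow (median -0.08), so the fall of Rag1 there had no called counterpart in them. In spleen the damage kinase Atm (-1.26 ± 0.13, adjusted p = 6.7e-06) and the Ku subunit Xrcc5 (-0.72 ± 0.15, adjusted p = 0.0023) fell, and Nhej1 (0.45 ± 0.13, adjusted p = 0.013) and Hmgb2 (0.33 ± 0.10, adjusted p = 0.017) rose.

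**Figure D5:**
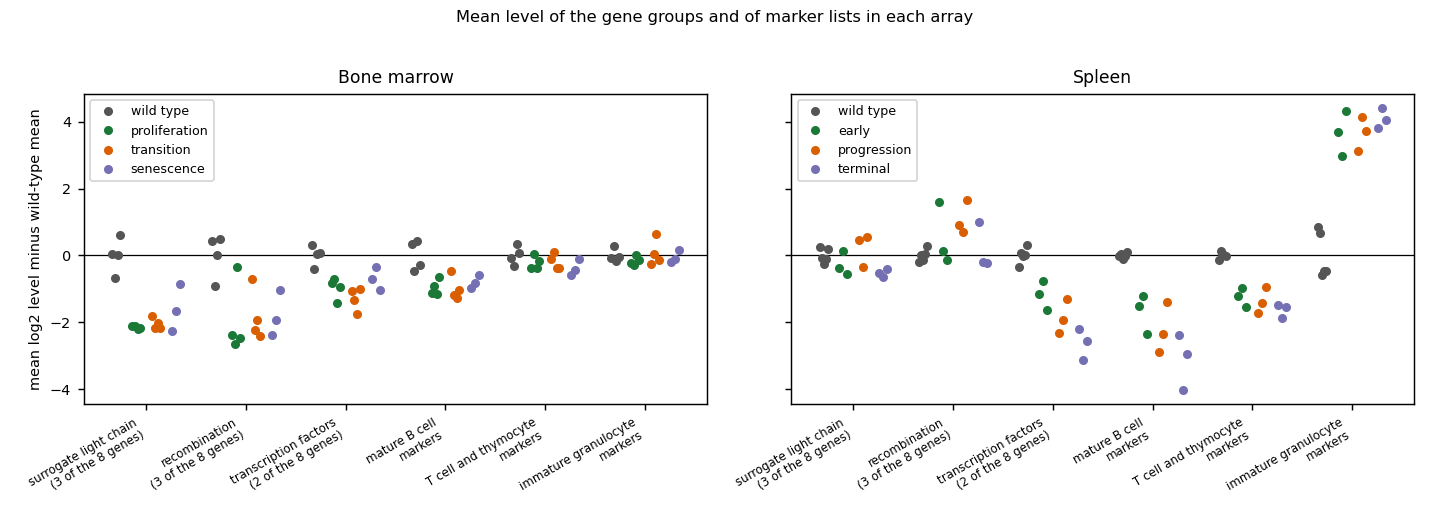
Mean log2 level of the surrogate light chain, recombination and transcription factor genes and of marker lists in each array, minus the wild-type mean of the tissue (points, coloured by group). In marrow the 3 groups of genes lay below the wild-type mean in the proliferation arrays, at -2.20 to -2.11, -2.64 to -0.36 and -1.43 to -0.71, with the recombination genes of proliferation 3 inside the wild-type range of -0.92 to 0.48. In spleen the transcription factors were at -3.12 to -2.20 and the mature B cell markers at -4.03 to -2.39 in the terminal arrays, and the immature granulocyte markers stood 2.97 to 4.41 above wild type.

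The marker lists give the RNA levels, in whole tissue, of genes typical of a cell type, and they do not count cells. In marrow 5 of 13 mature B cell markers fell over the 3 states and none rose (median -1.28), and their mean level lay at -1.16 to -0.64 in proliferation, -1.27 to -0.47 in transition and -0.99 to -0.60 in senescence and at -0.47 to 0.43 in wild type. Fcrla (-1.97 ± 0.24, adjusted p = 0.00081), a B cell protein related to Fc receptors, and Fcer2a (-1.59 ± 0.24, adjusted p = 0.0052), the low-affinity IgE receptor of mature B cells, had the smallest p-values. In the spleen all 13 mature B cell markers fell (median -2.44), and their mean level was -2.35 to -1.21 in the early stage, -2.88 to -1.40 in progression and -4.03 to -2.39 in the terminal stage. The part of this in the falls of Ebf1, Pax5 and Vpreb3 was not tested.

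T cells and thymocytes also use the recombinase and Dntt. None of the 12 measured markers of these cells was called in marrow (median -0.24), and Ptcra, the thymocyte's pre-T receptor chain, lay at 6.10 to 6.87 in all marrow arrays. In spleen 10 of the 12 fell and none rose over the stages (median -1.71). Ptcra was not among those that fell. It was 4.80 to 5.16 in wild-type spleen, 5.31 to 5.42 in progression, 5.53, 5.76 and 4.71 in the early stage and 4.85 to 5.04 in the terminal stage. All progression arrays were thus above wild type for Ptcra as for Rag1, as they were for 12.2% of all genes. Ptcra in wild type lay close to the lower quartile of the spleen arrays (4.56 to 4.81). Its difference in progression was not called (0.38 ± 0.18, adjusted p = 0.16). Immature granulocyte markers, which include Elane and Mpo, rose in spleen for all 5 measured (median 3.82), as did 9 of 9 mature neutrophil markers (median 1.50), and none of either list was called in marrow. Progression arrays, with the highest mean Rag1, had granulocyte means of 3.14 to 4.15, against 2.97 to 4.32 in the early and 3.81 to 4.41 in the terminal stage. The part of these cell types in the rise of Vpreb1, Igll1, Rag1 and Rag2 was not tested.

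The genes whose levels were most like the mean of the 8 standardised genes over the 15 marrow arrays were Fcrla (r = 0.97), Cd5l (r = 0.96), Spib (r = 0.94), Slc25a53 (r = 0.92) and Pou2af1 (r = 0.92). Over deviations from group means, which leave out the gap between genotypes, r was 0.81, 0.70, 0.70, 0.87 and 0.79 in that order. Over the 14 spleen arrays the nearest were Pwwp3a, Cul7 and Dapp1 (each r = 0.84) and Ptprb and Aplnr (each r = 0.83). Within the 8 genes, the mean was followed in marrow by Vpreb1 (r = 0.94), Rag1 (r = 0.93) and Vpreb3 (r = 0.93) and least by Pax5 (r = 0.40). In spleen it was followed by Rag1 (r = 0.83) and least by Pax5 (r = 0.12), Vpreb3 (r = 0.17) and Rag2 (r = 0.17).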

How the data were processed

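Expression was measured on 29 arrays, 15 of bone marrow and 14 of spleen. The values are log2 probe set summaries that the authors deposited, made with RMA, affy and limma per the submitters' processing notes, whose versions are not given in the sources used here. Of 22690 probe sets, 20393 had 1 symbol in the platform annotation, 691 named several genes and 1606 had no entry. Each of the 12394 genes was represented by its brightest probe set in the tissue, and dim probe sets were kept. The labels gave the groups. The tissues were modelled apart in limma 3.58.1 (R 4.3.3), each with its 4 groups, using eBayes and p-values adjusted by Benjamini-Hochberg across genes, and 0.05 was the threshold. A joint model of the 29 arrays and 8 groups gave the contrast between tissues. Arrays have no read depth, and their number limits the precision. Promoter sequences and gene order were read from RefSeq (GRCm38.p6). Figures were drawn with matplotlib 3.10.9.

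The 8 genes, the lists, the comparisons and the tests were chosen with earlier results of these data known, so no list is independent evidence of its direction. All 8 genes were described in every comparison, of each list up to 4 genes with the smallest p past the threshold were named, and the 5 nearest genes by correlation. Mpo, Ms4a1, Ptcra and the probe set shared with Vpreb2 were named outside this rule, after their values were seen. The alternatives changed the normalization (a further quantile step, or centring each array at its median), the genes (those above the median level), the probe set (the mean, or each other), the samples (1 fit over all arrays, or the groups compared alone), the moderation (trend and robust eBayes, array weights) and the model (the replicate number as a block, Xist, the Gapdh 3' minus 5' difference or months of tamoxifen as covariates), and left out each array in turn. Fits without the 2 and the 3 spleen arrays with the most pancreas signal were added after the data were seen.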

Additional observations from a re-analysis of the deposited data

Results flagged for a closer look

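In groups of 4 or 5 arrays, 4 of 32 gene and group combinations held an array set apart by Dixon's test at the 95% level, which chance gives in about 1 in 20. They were Vpreb3 in wild-type marrow 2 (7.39, nearest other array 8.44), Rag1 in proliferation 3 (7.27, nearest 5.59), Dntt in proliferation 3 (10.50, nearest 6.68) and Rag1 in wild-type spleen 5 (4.48, nearest 3.76). The same marrow, proliferation 3, thus carried both Rag1 and Dntt.

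The fusion difference in marrow minus that in spleen passed the test for 6 of the 8 genes, as it did for 14.0% of all genes. It was negative for Vpreb1 (-3.91), Igll1 (-2.06), Rag1 (-3.66) and Rag2 (-1.08), where 5.42% of all genes were called in that direction. For Vpreb3 (0.76) and Pax5 (0.51) it was positive, where 8.54% of all genes were.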

How the results depend on the processing

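Counts of called genes by direction were compared under every alternative except leaving out each array in turn. The fits without the arrays with pancreas signal were included. Of 336 such counts, 295 were within 1.5 times the count reported, 8 exceeded it and 33 fell short of it. A count of 0 where 0 was reported was taken as within. Many reported counts were 0, among them those of genes higher in marrow and those between marrow states. Part of the 295 are therefore matches at 0, which say nothing of how stable the calls were. The counts reported as lower were, in marrow, 3 in proliferation, 4 in transition, 0 in senescence and 5 over the states. In 1 fit over all 29 arrays they became 5 in proliferation and 2 in senescence, and the genes called higher in spleen became 0 in the early stage, 2 in progression, 0 in the terminal stage and 1 over the stages. Array weights gave 6 lower in proliferation, 3 lower in senescence, 4 higher in the early spleen and 1 lower between progression and early. The trend and robust options gave 1 lower in senescence. Xist as a covariate left 1 lower in proliferation and 1 in transition, and 0 higher in the terminal spleen. The Gapdh difference left 2 lower in transition and gave 1 lower between terminal and progression. Months of tamoxifen left 0 higher in the terminal stage and 0 lower between terminal and early, and only the groups compared also left 0 there. Of the 8 genes, Vpreb3 alone was above the median level in spleen, which left 1 lower and 0 higher in each stage and over the stages and 0 lower between terminal and early, and none in marrow, where no value could be given. Without the 2 arrays with the most pancreas signal, 0 were higher in the early and terminal stages and 1 over the stages, and without 3 such arrays 1 was lower in the early stage and 0, 1, 0 and 0 were higher in the early, progression and terminal stages and over the stages. Only the groups compared is the same fit for the pooled comparisons and was not run there. Beyond the smaller sets of genes or arrays these settings use, the cause was not tested. The share of all genes called under each alternative, arrays left out included, is not given here. A changed count of the 8 genes is therefore not read as particular to them.

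The dimmer Igll1 probe set reversed its direction in spleen, at -0.27 in progression, -0.51 in the terminal stage and -0.22 over the stages, and in the contrast between tissues, at 0.11. The labels do not link replicate numbers across groups. Deviations of equally numbered arrays correlated at -0.43 to 0.55 in marrow (mean 0.05, against -0.01 for other pairs) and -0.32 to 0.23 in spleen. These values show no common pairing, but they cannot exclude that some equally numbered arrays belong together. With the replicate number as a block, 1 gene was lower and 0 higher in the early spleen, 2 were higher in progression and 1 over the stages, and 0 were higher in the contrast between tissues.

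With each array left out, counts lower were 1 to 5 in proliferation, 1 to 5 in transition, 0 to 2 in senescence and 2 to 6 over the states. In spleen they were 2 to 3 in the early stage and 3 in the others and over the stages, with 0 to 2, 2 to 4, 0 to 1 and 1 to 3 higher. Between stages they were 0 to 1 higher from early to progression, 0 to 1 lower from progression to terminal and 1 lower from early to terminal, and in the contrast between tissues 4 to 5 lower and 1 to 3 higher. Values near or below the lower quartile, as for Rag2, Rag1 and Vpreb1 in spleen, Pax5 in marrow and Rag1 in fusion marrow, limit the resolution of small differences.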

Other observations

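Other lists measured beside the 8 genes moved as follows. Of 7 measured plasma cell markers none was called in marrow (median difference over the fusion states -0.12), while 4 fell and none rose in spleen (median -0.89), among them Tnfrsf13b (-0.89 ± 0.10, adjusted p = 2.1e-05) and Jchain, the joining chain of secreted antibody (-1.24 ± 0.18, adjusted p = 0.00012). Of 7 monocyte and macrophage markers, 2 rose in marrow, the receptors Csf1r (0.70 ± 0.15, adjusted p = 0.044) and Adgre1 (1.03 ± 0.19, adjusted p = 0.02). In spleen 2 of these 7 rose, F13a1 (3.39 ± 0.16, adjusted p = 1.1e-07) and Ccr2 (2.00 ± 0.21, adjusted p = 9.8e-06), and 3 fell, among them Adgre1 (-0.91 ± 0.16, adjusted p = 0.00052). None of 8 erythroid markers was called in marrow, and in spleen 7 of the 8 fell in the terminal stage (median -1.56) while none was called in the early stage (median 0.18) or progression (median -0.17). All adjusted p-values are from limma.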
